A study of Mus musculus with 6 samples.

Results

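Of the 41088 gene entries counted in the cerebellum of 6-day-old mice, 55 were taken by symbol as the genes of Wnt signalling: every Wnt ligand, Frizzled receptor (Fzd), secreted Frizzled-related protein (Sfrp), Dickkopf (Dkk) and R-spondin (Rspo) named by number, the co-receptors Lrp5, Lrp6, Ror1, Ror2 and Ryk, the antagonist Wif1, and the intracellular genes Axin1, Axin2, Ctnnb1, Dixdc1, Lef1, Tcf7, Tcf7l1 and Tcf7l2. They fell into 5 roles, with 19 ligands, 15 receptors and co-receptors, 9 secreted antagonists, 4 R-spondins and 8 intracellular or nuclear genes. Cerebellar RNA of strain C57BL/6 had been sequenced in 6 libraries, 3 labelled wild type and 3 labelled SnoN cKO, a conditional knockout of SnoN. Each genotype had 1 library labelled female and 2 labelled male, and each library has a code of its own in the labels, which do not say whether a code stands for an animal. The SDs measure the spread between these libraries. The SE of a gene's fold change rests on that spread and, through the fit, on that of the other genes. SnoN, the product of Skil, is a Smad-binding transcriptional regulator, and the series concerns its part in the proliferation of cerebellar granule neuron precursors. The labels used here do not say which promoter drives the deletion, in which cells it acts or which alleles the wild type mice carry.

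Wnt proteins are secreted, lipid-modified ligands that bind Frizzled receptors together with a co-receptor. In the branch that runs through Lrp5 or Lrp6, binding stops the Axin complex from destroying beta-catenin, the product of Ctnnb1, which then joins the DNA-binding factors of the TCF/LEF family at target genes. Ror1, Ror2 and Ryk serve other branches, Sfrp proteins and Wif1 hold ligands away from receptors, Dkk1 blocks Lrp5 and Lrp6, and R-spondins keep Frizzled receptors on the cell surface. In the cerebellum the pathway is known for the early role of Wnt1 at the midbrain-hindbrain boundary and for Wnt3 and Wnt7a in the wiring of granule cells, Purkinje cells and mossy fibres.

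Levels are in CPM, which sets counts against the TMM-scaled total of the library, always in the order of replicates 1, 2 and 3. Libraries held between 12605870 and 17757711 counts. Skil was at 89.5, 87.5 and 88.9 CPM in wild type against 76.0, 74.7 and 77.5 CPM in SnoN cKO, so the targeted gene was lower in each SnoN cKO library. Some libraries stood apart. Wild type 1 and SnoN cKO 2 held Xist, the RNA of the inactive X chromosome, at 2607 and 2536 CPM against 2.52 to 3.28 CPM in the rest, and 0 counts of the Y-linked gene Ddx3y. SnoN cKO 1, labelled female, therefore showed the male pattern, and SnoN cKO 2, labelled male, the female one. Both carry the same genotype label. The 15 choroid plexus and ependyma markers summed to 201 CPM in SnoN cKO 2, where the remaining libraries ranged from 2174 to 4026 CPM. Among the 46 genes tested below, SnoN cKO 2 was lowest for 11 and highest for 8, where the shares over all genes were 24.6% and 22.4%. Wild type 1 was lowest for 11 and highest for 10, with shares over all genes of 16.6% and 17.2%. Of the same genes, wild type 2 was lowest for 7 and highest for 13, and wild type 3 lowest for 4 and highest for 10. SnoN cKO 1 was lowest for 8 and highest for 3, and SnoN cKO 3 lowest for 5 and highest for 2. Markers of granule neuron precursors, granule neurons and Purkinje cells were present in every library, none of them at 0 throughout. In whole tissue, fewer cells of a type and less RNA per cell cannot be told apart.

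Of the 55 genes, 46 passed the filter on low counts, and all of these had a mean of at least 1 CPM. The other 9 were Wnt1, Wnt2, Wnt3a, Wnt8a, Wnt8b, Wnt10a, Dkk1, Dkk4 and Rspo4. Wnt8a and Dkk4 had 0 counts in all 6 libraries. Wnt3a, which drives beta-catenin signalling in many tissues, had at most 1 count in a library and Wnt8b likewise. Wnt1 had counts of 3, 3 and 1 in wild type and 7, 6 and 5 in SnoN cKO, too few to test. Every Frizzled receptor and every intracellular or nuclear gene passed.

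Set per kilobase of exon, which allows genes to be compared, the 19 ligands were dominated by a few. Wnt5a, the main ligand of the branches without beta-catenin, stood at 7.57 CPM per kb over all libraries. Wnt7b and Wnt3 followed at 7.12 and 4.70 CPM per kb, and Wnt7a and Wnt4 at 2.87 and 2.12 CPM per kb. Of the summed ligand level per kb, Wnt5a made up 22.1% to 23.8% over the 6 libraries, Wnt7b 19.9% to 24.2% and Wnt3 11.7% to 15.8%. The ranges of Wnt5a and Wnt7b overlapped, so their order was not settled. The sum itself was 33.5 ± 0.987 CPM per kb in wild type and 32.1 ± 0.62 CPM per kb in SnoN cKO (SD, n = 3), and the genotypes overlapped.

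Among Frizzled receptors, Fzd1, Fzd2 and Fzd7 led at 20.3, 18.0 and 12.8 CPM per kb and made up 25.2%, 22.3% and 15.8% of the Frizzled sum. Fzd5, at 0.692 CPM per kb, was the lowest. Ryk, a receptor for Wnt proteins with an inactive kinase domain, stood at 22.4 CPM per kb, and Lrp6 at 9.38 against 4.42 CPM per kb for Lrp5. Of the secreted antagonists, Sfrp1 alone held 56.4% to 64.0% of the sum in each library, with 52.7 CPM per kb, and Dkk3, a Dickkopf family member that does not bind Lrp6 as Dkk1 does, held 23.0% to 28.0%. The R-spondins were all scarce, between 0.0302 CPM per kb for Rspo4 and 0.692 CPM per kb for Rspo2. Ctnnb1 was the most abundant gene of the pathway at 199 CPM per kb. Exon lengths came from a later annotation than the counts, so these levels are approximate.

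**Figure D1:**
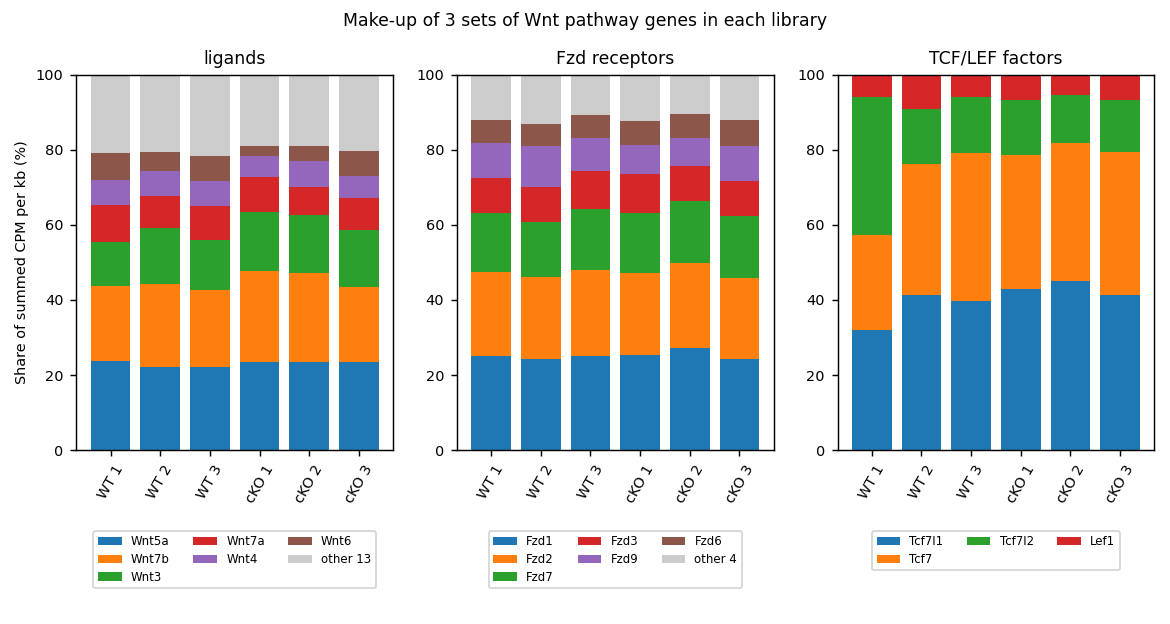
Stacked bars give, for each of 6 libraries (WT wild type, cKO SnoN cKO), the share in percent of the summed CPM per kb that each gene holds among the 19 ligands, the 10 Frizzled receptors and the 4 TCF/LEF factors. Wnt5a holds 22.1% to 23.8% of the ligand sum in every library and Wnt6 from 2.60% to 7.24%, while Tcf7l2 holds 37.0% of the TCF/LEF sum in wild type 1.

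The genotype comparison sets the levels in the libraries labelled SnoN cKO against those in wild type. By edgeR's quasi-likelihood test 0 of the 46 genes had an adjusted p under 0.05, where the share over all 15457 genes tested was 0%. The lowest adjusted p was 0.637. Skil, the targeted gene, did not pass either, at a log2 fold change of -0.22 (SE 0.04, edgeR adjusted p = 0.637). That adjusted p was the lowest over all genes tested and is shared by many. Before adjustment Skil had an edgeR p of 3.79e-04 and ranked 7 of the 15457 genes. Before adjustment, p was under 0.05 in 4 of the 46, where the share over all genes was 7.68%. These were Sfrp1, higher in SnoN cKO, and Fzd9, Fzd8 and Sfrp2, lower, where 3.21% of all genes were so called as higher and 4.47% as lower. Limma-voom also called 0 of the 46, with 4 at an unadjusted p under 0.05 (7.81% of all genes). DESeq2 gave an adjusted p for 32 of the 46 and called 0 of these, and 2 of the 46 had an unadjusted p under 0.05 (4.32% of all genes). The number by edgeR depended on single libraries. It was 10 without wild type 3, where the share over all genes was 8.85%, and 5 without SnoN cKO 3, where that share was 9.69%. It was 1 without wild type 1 (5.53% of all genes), 2 without wild type 2 (4.33%), 2 without SnoN cKO 1 (7.98%) and 2 without SnoN cKO 2 (4.75%). Log2 fold changes were positive in 16 genes and negative in 30, with a median of -0.03, against 49.0% positive and a median of -0.00231 over all genes. The filter can admit a scarce gene by its higher genotype, so the split is a description of these libraries. In 32 genes the 95% interval of the fold change lay within 1.5-fold either way, which is 69.6% against 80.2% of all genes.

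The genotypes did not overlap in 10 of the 46 genes, where the share over all genes was 13.7%. In SnoN cKO 4 were higher and 6 lower, beside 6.95% and 6.73% of all genes. The higher ones were Ryk, Fzd6, Wif1 and Ctnnb1, and the lower ones Wnt2b, Wnt16, Fzd8, Fzd9, Sfrp2 and Rspo3. With DESeq2's size factors Ctnnb1 overlapped. With 1 library left out fewer values can overlap, and the number was 13 to 19. It was 18 without wild type 2, where the share over all genes was 21.9%, and 19 without wild type 3, where it was 28.6%. It was 15 without SnoN cKO 1 (25.3% of all genes) while leaving out wild type 1 gave 13 (22.6%), SnoN cKO 2 gave 13 (20.9%) and SnoN cKO 3 gave 13 (26.4%).

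**Figure D2:**
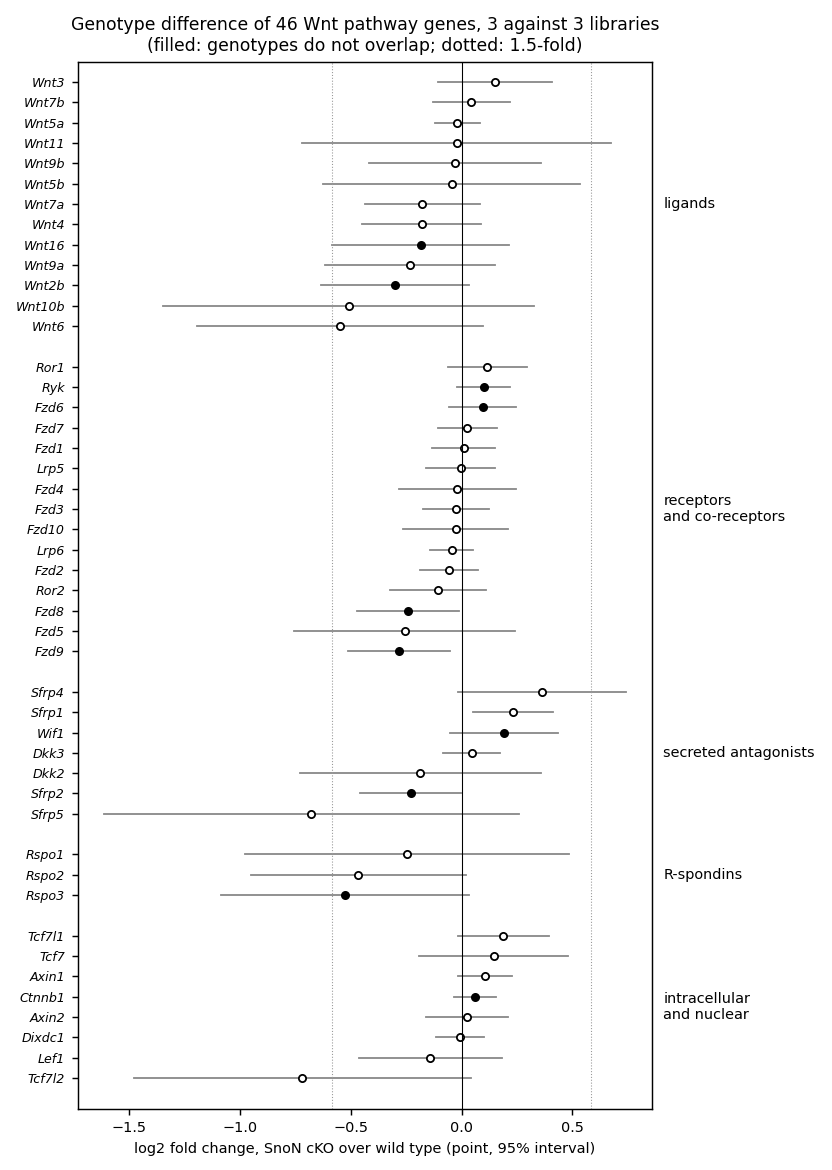
Points give the log2 fold change of SnoN cKO over wild type for the 46 genes that passed the filter, grouped by role, with lines for the 95% interval from edgeR, filled where the genotypes do not overlap and dotted lines at 1.5-fold. Only the intervals of Fzd9, Fzd8, Sfrp2 and Sfrp1 leave out 0, and the widest belong to the scarce genes and to Tcf7l2.

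In the most abundant ligands the genotypes overlapped. Wnt5a was at 60.6, 60.1 and 58.1 CPM in wild type against 58.0, 58.2 and 60.2 CPM in SnoN cKO. These 6 values lay closer together than those of any other ligand, at a log2 fold change of -0.02 (SE 0.05) whose 95% interval ran from -0.12 to 0.08. Wnt7b, a ligand of neurons that also acts on brain vessels, was at 31.8, 37.2 and 33.9 CPM in wild type against 37.6, 36.9 and 32.0 CPM in SnoN cKO. The genotypes overlapped, at a log2 fold change of 0.04 (SE 0.08). Wnt3, made by Purkinje cells, was at 11.7, 15.8 and 13.5 CPM in wild type against 15.4, 15.0 and 15.4 CPM in SnoN cKO. The SnoN cKO libraries lay within the wild type range, and the log2 fold change was 0.15 (SE 0.12), or 0.05 without wild type 1 and 0.28 without wild type 2. Wnt7a, a ligand of granule cells that acts on mossy fibre endings, was at 10.02, 9.30 and 9.66 CPM in wild type against 9.40, 7.51 and 8.74 CPM in SnoN cKO. SnoN cKO 2 was the lowest library, and the log2 fold change was -0.18 (SE 0.12).

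Several scarcer ligands were lower in SnoN cKO without passing the test. Log2 fold changes were negative in 11 of the 13 ligands tested, and their median was -0.18. It was -0.10 without SnoN cKO 1 and -0.09 without SnoN cKO 2. Wnt2b was at 6.49, 7.04 and 6.31 CPM in wild type against 4.46, 5.28 and 6.28 CPM in SnoN cKO. The genotypes were separated only by the narrow gap between wild type 3 and SnoN cKO 3, at a log2 fold change of -0.30 (SE 0.15, edgeR adjusted p = 0.654). Wnt16, at 2.74, 2.72 and 3.20 CPM in wild type against 2.58, 2.44 and 2.58 CPM in SnoN cKO, did not overlap either and differed by a log2 fold change of -0.18 (SE 0.18). Wnt6 was at 5.16, 3.79 and 4.91 CPM in wild type against 1.80, 2.77 and 4.63 CPM in SnoN cKO. SnoN cKO 1 was lowest, and SnoN cKO 3 lay within the wild type range. Its log2 fold change was -0.55 (SE 0.29), with a 95% interval from -1.19 to 0.10, and it was -0.30 without SnoN cKO 1 and -0.98 without SnoN cKO 3. Wnt10b varied most among the tested ligands, from 0.677 CPM in SnoN cKO 2 to 2.57 CPM in wild type 3, and rested on 10 to 33 counts. Its log2 fold change was -0.51 (SE 0.38), -0.15 without wild type 3 and -0.22 without SnoN cKO 2. Wnt4, Wnt5b, Wnt9a, Wnt9b and Wnt11 overlapped between genotypes, with log2 fold changes between -0.23 and -0.02.

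Markers of several other tissues and cell types mostly had negative log2 fold changes beside these ligands, without being tested as lists. The log2 fold changes of all 14 meninges and fibroblast markers were negative (median -0.12), and no marker was at 0. Their summed level was 2055, 1712 and 1825 CPM in wild type against 1556, 1598 and 1886 CPM in SnoN cKO, so the genotypes overlapped, with SnoN cKO 1 lowest and wild type 1 highest, as for Wnt6. Of the choroid plexus and ependyma markers 14 of 15 were negative (median -0.27). Their sum was by far the lowest in SnoN cKO 2, at 201 CPM. SnoN cKO 1 and 3 were at 4026 and 3766 CPM against 3862, 3906 and 2174 CPM in wild type, so the genotypes overlapped. Negative too were 9 of 9 markers of unipolar brush cells and cerebellar nuclei (median -0.36). Of the 26 brainstem, midbrain and spinal cord markers 13 passed the filter, and 12 of these were negative (median -0.99). All 26 together summed to only 17.1 to 48.6 CPM in a library. The filter can admit a scarce gene by its higher genotype, so this count describes these libraries only. The summed levels of these last 2 lists did not overlap, the second only by a narrow gap between wild type 3 and SnoN cKO 3. Summed levels of 2 further lists did not overlap either, with SnoN cKO higher. Astrocytes and Bergmann glia (7 of 9 markers positive) were at 4084 to 4138 CPM in wild type against 4270 to 4586 CPM in SnoN cKO. Endothelium and pericytes (5 of 10 positive) were at 696 to 723.4 CPM against 724.3 to 737.9 CPM, a narrow gap. The part of any of these cells in the levels of Wnt6 and the other scarce ligands was not tested.

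Receptors and co-receptors were the most precisely measured role, and 14 of the 15 had a 95% interval within 1.5-fold either way. Their median log2 fold change was -0.03, with 5 positive and 10 negative. It was -0.06 without SnoN cKO 1 and -0.0053 without SnoN cKO 3. Fzd1, the leading Frizzled, was at 86.3, 80.9 and 87.8 CPM in wild type against 85.8, 92.6 and 78.5 CPM in SnoN cKO. SnoN cKO held both the highest and the lowest library, and the log2 fold change was 0.01 (SE 0.06). Fzd2 was at 67.8, 63.0 and 70.7 CPM in wild type against 65.2, 67.9 and 60.8 CPM in SnoN cKO (log2 fold change -0.06, SE 0.06).

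Fzd9 was the receptor with the smallest p. It was at 17.4, 19.8 and 16.9 CPM in wild type against 14.4, 13.7 and 16.4 CPM in SnoN cKO, each SnoN cKO library below each wild type one. The log2 fold change was -0.28 (SE 0.10), with a 95% interval from -0.51 to -0.05 and an edgeR adjusted p of 0.637. Fzd8 was at 13.1, 12.02 and 11.3 CPM in wild type against 10.5, 10.7 and 9.62 CPM in SnoN cKO. The genotypes did not overlap, and the log2 fold change was -0.24 (SE 0.10, edgeR adjusted p = 0.638). Fzd6, a receptor of planar cell polarity, was at 24.4, 22.6 and 24.2 CPM in wild type against 25.3, 25.8 and 24.9 CPM in SnoN cKO, a difference in the other direction at a log2 fold change of 0.09 (SE 0.07). Ryk was at 91.9, 100.4 and 102 CPM in wild type against 104, 109 and 103 CPM in SnoN cKO. Its genotypes did not overlap, and its log2 fold change was 0.10 (SE 0.05). The co-receptors Lrp5 and Lrp6 differed by log2 fold changes of -0.0042 (SE 0.07) and -0.04 (SE 0.04), and Ror1 and Ror2 of 0.12 (SE 0.08) and -0.11 (SE 0.10). Fzd3, Fzd4, Fzd5, Fzd7 and Fzd10 lay between -0.26 and 0.03 and overlapped.

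**Figure D3:**
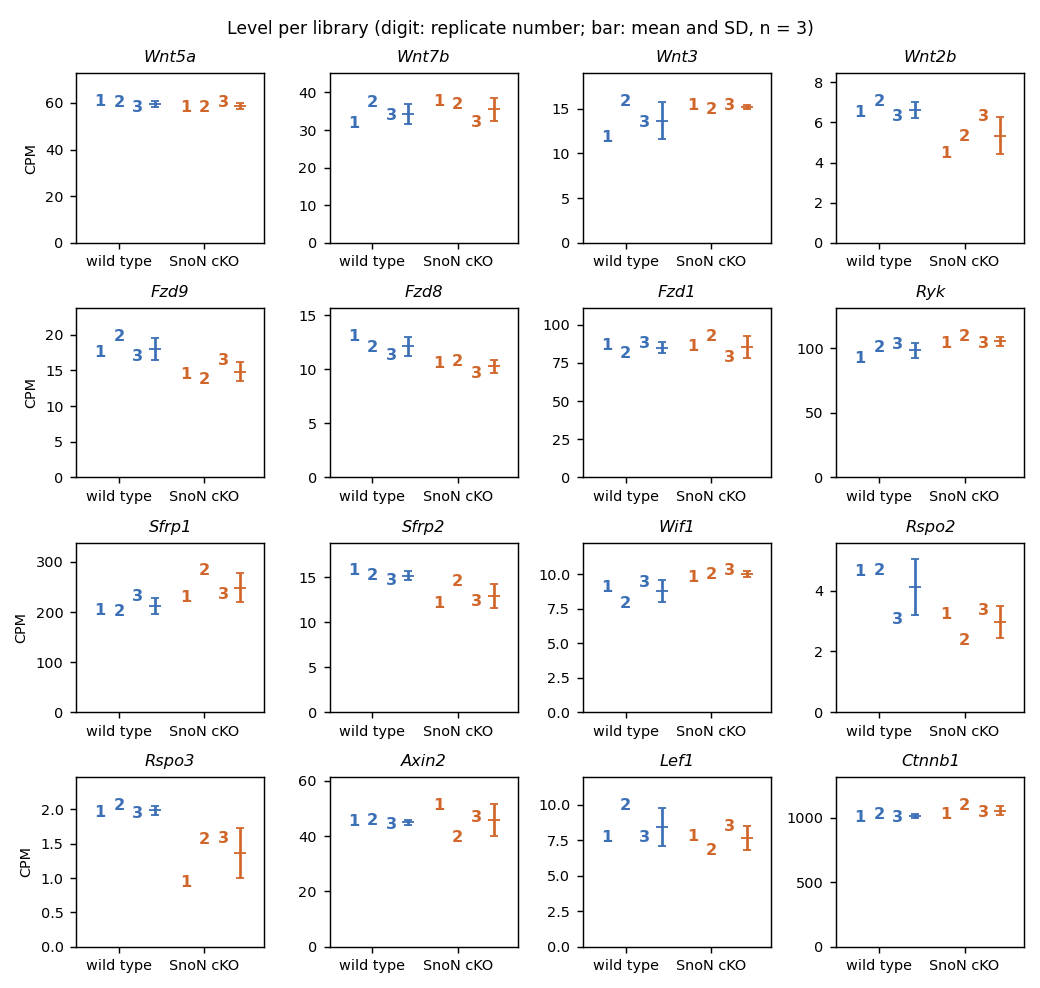
Digits mark the CPM of replicates 1, 2 and 3 of each genotype for 16 genes, beside the mean and SD (n = 3), on axes that start at 0. Fzd9, Fzd8, Sfrp2 and Rspo3 are lower in each SnoN cKO library, whereas Wnt5a, Axin2 and Fzd1 overlap between genotypes.

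Of the 7 secreted antagonists tested, 4 had positive and 3 negative log2 fold changes, and the median was 0.05. Without SnoN cKO 3 the median was -0.0037, and without wild type 3 it was 0.0816. Sfrp1, which binds Wnt proteins through a Frizzled-like domain, was at 204, 201 and 231 CPM in wild type against 230 CPM in SnoN cKO 1, 282 CPM in SnoN cKO 2 and 234 CPM in SnoN cKO 3. SnoN cKO 2 stood above all others, and SnoN cKO 1 lay just below wild type 3. The log2 fold change was 0.23 (SE 0.08), with a 95% interval from 0.05 to 0.41 and an edgeR adjusted p of 0.637. Without SnoN cKO 2 it was 0.13. Sfrp2 differed in the other direction, at 15.7, 15.2 and 14.7 CPM in wild type against 12.1, 14.5 and 12.3 CPM in SnoN cKO. Its genotypes did not overlap, although wild type 3 and SnoN cKO 2 were close, and its log2 fold change was -0.23 (SE 0.10, edgeR adjusted p = 0.648). Summed markers of several cell types were also highest in SnoN cKO 2. These were granule neuron precursors at 1886 CPM, granule neurons at 4439 CPM, Purkinje cells at 2455 CPM, GABAergic interneurons at 614 CPM, astrocytes and Bergmann glia at 4586 CPM and microglia at 179 CPM. Granule neurons were nearly as high in wild type 3, at 4432 CPM. Astrocytes and Bergmann glia were above each wild type library in every SnoN cKO library. Lowest in SnoN cKO 2 were choroid plexus and ependyma (201 CPM), unipolar brush cells and cerebellar nuclei (276 CPM), the oligodendrocyte lineage (1350 CPM) and brainstem, midbrain and spinal cord (17.1 CPM). The part of all these cells in the level of Sfrp1 was not tested.

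Wif1, which binds Wnt proteins through its own domain, was at 9.08, 7.90 and 9.43 CPM in wild type against 9.79, 10.02 and 10.3 CPM in SnoN cKO. Each SnoN cKO library was above each wild type one, at a log2 fold change of 0.19 (SE 0.11). Dkk3 was at 76.4, 75.2 and 81.6 CPM in wild type against 76.1, 78.0 and 86.2 CPM in SnoN cKO and overlapped, at a log2 fold change of 0.05 (SE 0.06). Sfrp4 differed by a log2 fold change of 0.36 (SE 0.17) and Dkk2 of -0.19 (SE 0.24). Sfrp5 had the widest interval of the antagonists, from -1.62 to 0.26, with levels of 0.939, 1.59 and 2.34 CPM in wild type against 1.41, 0.474 and 1.17 CPM in SnoN cKO. It rested on 7 to 30 counts, and its log2 fold change of -0.68 was -0.34 without wild type 3 or without SnoN cKO 2. Dkk1, the classical inhibitor of Lrp5 and Lrp6, had counts of 1, 3 and 10 in wild type and 2, 0 and 3 in SnoN cKO and was not tested.

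The log2 fold changes of all 3 tested R-spondins were negative (median -0.47). Rspo2 was at 4.62, 4.65 and 3.04 CPM in wild type against 3.21, 2.37 and 3.34 CPM in SnoN cKO. Wild type 3 lay below SnoN cKO 1 and 3, and the log2 fold change was -0.47 (SE 0.22, edgeR adjusted p = 0.654). Rspo3 was at 1.96, 2.06 and 1.95 CPM in wild type against 0.940, 1.56 and 1.58 CPM in SnoN cKO. The genotypes did not overlap, but the values rested on 25 to 31 counts in wild type and 12 to 27 in SnoN cKO, and the log2 fold change was -0.52 (SE 0.25, edgeR adjusted p = 0.654), or -0.34 without SnoN cKO 1. Rspo1 was at 0.861, 1.66 and 0.935 CPM in wild type against 1.10, 0.880 and 0.997 CPM in SnoN cKO and overlapped. At this depth, none of their intervals lay within 1.5-fold either way.

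Log2 fold changes were positive in 5 and negative in 3 of the 8 intracellular and nuclear genes (median 0.04). The intervals of 7 lay within 1.5-fold either way. Ctnnb1 was at 1005, 1030.0 and 1001 CPM in wild type against 1030.2, 1097 and 1042 CPM in SnoN cKO. Wild type 2 and SnoN cKO 1 were nearly equal, and the log2 fold change was 0.06 (SE 0.04), with a 95% interval from -0.03 to 0.16. Axin1, the scaffold of the destruction complex, was at 58.7, 58.8 and 65.5 CPM in wild type against 67.0, 66.2 and 63.9 CPM in SnoN cKO. It overlapped through wild type 3, at a log2 fold change of 0.11 (SE 0.06). Dixdc1, which shares with Axin the domain by which they assemble, was at 115, 120 and 125 CPM in wild type against 117, 124 and 117 CPM in SnoN cKO. It overlapped and differed by a log2 fold change of -0.01 (SE 0.05).

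Axin2, a general transcriptional target of beta-catenin and in turn a scaffold that dampens it, is a common readout of the pathway. It was at 45.4, 45.6 and 44.1 CPM in wild type against 51.1, 39.7 and 46.8 CPM in SnoN cKO. SnoN cKO held both the highest and the lowest library, at a log2 fold change of 0.02 (SE 0.08) whose 95% interval ran from -0.16 to 0.21. Lef1, a DNA-binding factor and itself a target, was at 7.67, 9.96 and 7.72 CPM in wild type against 7.75, 6.77 and 8.50 CPM in SnoN cKO and overlapped, at a log2 fold change of -0.14 (SE 0.15). Tcf7 was at 9.86, 11.4 and 15.2 CPM in wild type against 12.3, 13.6 and 14.3 CPM in SnoN cKO, all of the latter inside the wild type range, at a log2 fold change of 0.14 (SE 0.15). That value was 0.0179 without wild type 1 and 0.33 without wild type 3. Tcf7l1, often a repressor of targets in the absence of a signal, differed by a log2 fold change of 0.19 (SE 0.09).

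Tcf7l2 stood apart through 1 library. It was at 48.4, 16.1 and 19.0 CPM in wild type against 17.0, 15.8 and 17.7 CPM in SnoN cKO, so that wild type 1 was 2.54 times the next library and the other 5 overlapped. Its log2 fold change was -0.72 (SE 0.34, edgeR adjusted p = 0.654) with all libraries and -0.06 without wild type 1. Tcf7l1, Tcf7 and Lef1 were not high in wild type 1, and Tcf7l2 made up 37.0% of the TCF/LEF sum per kb there against 12.8% to 14.8% in the rest. Only 10 of the 15457 genes tested, or 0.0647%, were at least 2 times as high in wild type 1 as in any other library. By that ratio Tcf7l2 ranked 6 of the 14845 genes with a mean of at least 1 CPM, behind Nrgn, Lhx9, Pou4f2, Lhx2 and Pdyn and ahead of the homeobox gene Zfhx3. Nrgn, a calmodulin-binding protein of forebrain neurons, reached 34.9 CPM in wild type 1 and no more than 5.53 CPM elsewhere. Lhx9 and Lhx2, LIM homeobox factors, reached 22.4 and 7.90 CPM there and no more than 5.30 and 2.96 CPM elsewhere. They were picked by this ratio with the values in view. The 26 markers of brainstem, midbrain and spinal cord, of which 13 passed the filter, include none of Nrgn, Lhx9, Pou4f2, Lhx2 and Pdyn. Summed, these markers were at 36.9, 48.6 and 33.8 CPM in wild type against 27.9, 17.1 and 33.6 CPM in SnoN cKO. The 9 markers of unipolar brush cells and cerebellar nuclei, which include Lhx2 and Lhx9, were at 405, 405 and 384 CPM in wild type against 347, 276 and 355 CPM in SnoN cKO. The part of other cells in the level of Tcf7l2 was not tested.

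**Figure D4:**
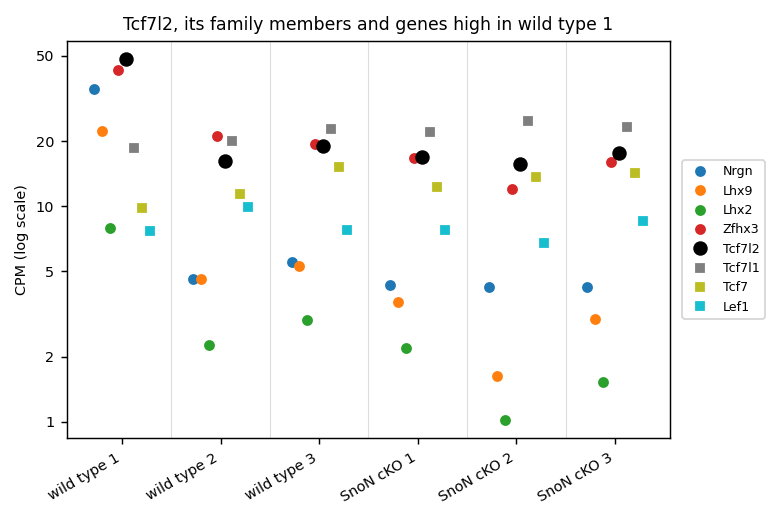
CPM on a log axis in each of the 6 libraries for Tcf7l2 (black), the other 3 TCF/LEF factors (squares) and 4 further genes (coloured circles). The latter, Nrgn, Lhx9, Lhx2 and Zfhx3, were picked from those high in wild type 1. By the ratio of wild type 1 to the next library they ranked 1, 2, 4 and 10. Tcf7l2 is at 48.4 CPM in wild type 1 and from 15.8 to 19.0 CPM in the remaining ones, whereas Tcf7l1, Tcf7 and Lef1 are not high there.

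TCF/LEF factors bind a short core sequence, and members of the pathway are among their known targets. The core was searched as CTTTGAA, as the variant CTTTGAT, as the variant CTTTGTA and as the variant CTTTGTT, on both strands of RefSeq promoters (build GRCm38.p6, 250 bases before to 50 after the start site). Entries were found for 38 of the 55 genes. A match lay in 7 of their 48 promoters, or 14.6%, against 16.9% of all 32851 promoters. Windows of 30 bases around the matches of the genes that passed the filter are shown to let the letters be compared, 5′ to 3′ on the strand of the gene, with the match in capitals.
Wnt3: cctcaagtggaCTTTGTTccaactattggg
Wnt5b: agtaagtctctCTTTGATctgctccctgtc
Wnt11: gacgtgggcggATCAAAGcgacggtccgcg
Fzd7: tccacagagaaAACAAAGcgcgctattgga
Lef1: caacctcagaaTACAAAGtaggattgcatt
Tcf7l2: aaaatatcaggCTTTGTTcttttgattgaa
The windows lie at chr11:103774182-103774211 (plus strand) for Wnt3, chr6:119449439-119449468 (minus strand) for Wnt5b, chr7:98835050-98835079 (plus strand) for Wnt11, chr1:59482006-59482035 (plus strand) for Fzd7, chr3:131156136-131156165 (plus strand) for Lef1 and chr19:55895296-55895325 (plus strand) for Tcf7l2. The match of Wnt3 begins 18 bases after the start site, and that of Lef1 147 bases and that of Tcf7l2 14 bases before it. In Wnt11, Fzd7 and Lef1 the core reads on the opposite strand. The promoter entry of Axin2 held no match in this window. Of these 6 genes none passed the test of genotype, with log2 fold changes of 0.15, -0.05, -0.02, 0.03, -0.14 and -0.72 in the order shown, and a match is a description of the letters only.

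Other genes of the pathway were counted from a list of 66 found in the table, of which 63 passed the filter. By edgeR 0 of the 63 passed at an adjusted p of 0.05, and 4 had an unadjusted p under 0.05, where the share over all genes was 7.68%: Dvl2 higher and Csnk1g1, Vangl1 and Frzb lower in SnoN cKO. The genotypes did not overlap in these 4 and in Ndp, Macf1 and Nlk, 7 of the 63 where the share over all genes was 13.7%. Their median log2 fold change was -0.02, with 23 positive and 40 negative, and 60 of the 63 intervals lay within 1.5-fold either way. Dvl2, a Dishevelled protein that links Frizzled to the Axin complex, was at 44.0, 44.0 and 41.2 CPM in wild type against 49.3, 47.8 and 45.6 CPM in SnoN cKO (log2 fold change 0.14, SE 0.05). Csnk1g1, a casein kinase 1 of the family that phosphorylates Lrp6, was at 73.6, 72.2 and 74.7 CPM in wild type against 68.0, 63.5 and 68.9 CPM in SnoN cKO (log2 fold change -0.14, SE 0.05). Vangl1, a core protein of planar cell polarity, and Frzb, a further secreted Frizzled-related protein, differed by log2 fold changes of -0.26 (SE 0.10) and -0.41 (SE 0.17).

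Further targets and feedback inhibitors of beta-catenin overlapped between genotypes, as Axin2 did. Nkd1, which binds Dishevelled, was at 122, 123 and 152 CPM in wild type against 142, 126 and 139 CPM in SnoN cKO (log2 fold change 0.04, SE 0.09). Sp5, a target in many tissues, differed by a log2 fold change of -0.02 (SE 0.06), and Znrf3, which removes Frizzled from the surface, of 0.12 (SE 0.07). Sostdc1, an antagonist that binds Lrp6, shared its lowest libraries with the choroid plexus markers. It was at 30.6, 28.2 and 15.7 CPM in wild type against 24.4, 0.880 and 27.2 CPM in SnoN cKO. The lowest level was in SnoN cKO 2 and the next lowest in wild type 3, as for the sum of those markers. Among the rest the order differed, with Sostdc1 highest in wild type 1 and the summed markers highest in SnoN cKO 1. The part of choroid plexus in the level of Sostdc1 was not tested.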

How the data were processed

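The authors deposited 1 table of unnormalized read counts with a column for each of 6 libraries. STAR 2.0.4b, Subread, featureCounts 1.4.5 and the mm9 build are named, without their roles, per the submitters' processing notes. Per the labels' protocols the libraries were single-end and made with the NEBNext Ultra kit, which does not mark strand, so reads of overlapping or antisense genes could not be told apart.

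The table held 41228 entries. Its Ensembl identifiers did not go with its symbols: from entry 87 on they were displaced, and of 40254 identifiers found in the reference's table of gene names 0.241% paired with the same symbol there. Counts followed the symbols, since Xist by symbol separated the sexes while the identifier of Xist had at most 2 counts, so genes were taken by symbol and no identifier is printed. Repeats of a symbol with equal counts (140 entries, 112 symbols) were kept once.

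edgeR 4.0.16 in R 4.3.3 was used with filterByExpr (minimum count of 10), TMM scaling and a two-sided quasi-likelihood test of genotype on all 6 libraries, without covariates, over 15457 genes, with Benjamini-Hochberg adjustment at 0.05. The biological coefficient of variation was 9.71%. SE was derived from the F statistic of each gene, and 95% intervals from SE and the degrees of freedom of the test. CPM used TMM-scaled totals of the filtered genes, and lengths were the union of exons per symbol in GENCODE vM21. limma 3.58.1 and DESeq2 1.42.0 served as alternatives, with others in the closing section.

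Members given in CPM by library were the 3 with the highest level per kb in each role, the 5 members with the smallest p, those with a mean of at least 1 CPM whose genotypes did not overlap, the 5 members with the largest ratio of highest to lowest library, and Axin2, Lef1, Tcf7, Ctnnb1, Wnt3, Wnt7a and Sfrp1. Skil and some further genes that are not members were given by library as well. The members and all lists were chosen with earlier results of these data known. Marker lists of 13 tissues and cell types were fixed with them. The median log2 fold changes were -0.27 for choroid plexus and ependyma, -0.12 for meninges, 0.0053 for endothelium and pericytes, 0.09 for granule neuron precursors, 0.06 for granule neurons, 0.07 for Purkinje cells, 0.02 for GABAergic interneurons, -0.36 for unipolar brush cells and cerebellar nuclei, 0.13 for astrocytes, -0.05 for oligodendrocytes, 0.07 for microglia, -0.99 for brainstem, midbrain and spinal cord, and -0.17 for blood.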

Additional observations from a re-analysis of the deposited data

How the results depend on the processing

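No member with an adjusted p passed the threshold under any of the 13 alternatives (DESeq2's Wald test gave none for 14 members). The number of members at an unadjusted p under 0.05 was 1 to 10. By edgeR it was 5 with the labelled sex as a covariate (6.85% of all genes) and 7 of 53 without the filter on low counts (7.12%). With the replicate block it was 2 (5.09%), and without wild type 1 and SnoN cKO 2 together it was 1 (4.27%). Over all genes, the number called was 39 without the filter on low counts, 6 with DESeq2's Wald test, 1 with the labelled sex as a covariate and 1 without wild type 1 and SnoN cKO 2 together. The last, chosen after seeing the data, leaves only libraries with Xist at 2.52 to 3.28 CPM. None of those called was a member. The sex labels of SnoN cKO 1 and 2 went against Xist, so the sex covariate is misassigned for them. With the replicate block, 0 genes and 0 members were called, with 786 genes and 2 members at an unadjusted p under 0.05. Libraries of the same number deviated from the mean of their genotype in opposite directions (correlations of -0.53 to -0.17). Such deviations cancel within a genotype, which by itself forces correlations of mixed sign. The correlations therefore do not settle whether the numbers pair the samples. Libraries of other numbers correlated across genotypes at up to 0.64, for wild type 2 with SnoN cKO 3. Of 29 named members, 21 kept the sign of their log2 fold change throughout. The other 8 changed sign under at least 1 alternative. With 1 library left out, Wnt7b ranged from -0.0066 to 0.12, Fzd1 from -0.0510 to 0.0781, Dkk3 from -0.0037 to 0.0816, Rspo1 from -0.41 to 0.14, Dixdc1 from -0.0345 to 0.0226, Axin2 from -0.0576 to 0.12 and Lef1 from -0.22 to 0.0029. Dixdc1 was at 0.0033 without the filter. Without wild type 1 and SnoN cKO 2, Wnt5a was at 0.00084, Wnt7b at -0.0385 and Fzd1 at -0.0399. Of the 13 tested members with under 50 counts in some library, all but Wnt16 had intervals that reached past 1.5-fold.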
